A study of Mus musculus with 14 samples.

Results

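Casp1, Casp4, Casp12, Nlrp3, Pycard, Il1b, Il18, Il1r1 and Il1rn are the 9 genes described here, of 11815 genes tested in tumours of p53+/- mice. They are the inflammatory caspases, an inflammasome sensor and its adaptor, a pair of interleukin-1 family ligands, a receptor and its antagonist. The set was selected on earlier results of these same arrays, in which the caspases stood out beside a block of chromosome 9 genes. Each gene was represented by the probe set chosen by its mean signal over all 14 arrays, the brightest of that gene. Levels that led to this choice are therefore given as a description.

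The 14 arrays held RNA of 1 tumour labelled rhabdomyosarcoma and of 12 osteosarcomas, bone-forming sarcomas, all from mice with 1 working copy of the p53 tumour suppressor gene, and of mc3T3 cells. mc3T3 is a cultured mouse osteoblast line, untreated and non-tumorigenic, whose p53 genotype the labels do not give, and it stood for the control on a single array. The tumours were whole pieces of tissue as far as the labels tell, and the labels do not say whether they came from separate animals, so p-values measure only the spread between these samples. Tumours are named here by number, which carries no order, and the titles hold identifiers that start with m (6 osteosarcomas and the tumour labelled rhabdomyosarcoma), c (4) or o (2), with no meaning given.

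The median signal of an array was 67.1 to 111.1 units, and 33.8% to 40.4% of probe sets reached 200 units. The ratio of beta-actin signal at the 3' end to that at the 5' end, which rises as RNA breaks down, was 1.24 in the tumour labelled rhabdomyosarcoma, 1.42 to 2.13 in the osteosarcomas and 1.32 in mc3T3. By the limma test described below, 6 of the 7 osteoblast markers tested were called lower in the tumour labelled rhabdomyosarcoma than in the osteosarcomas. All 7 were lower there at an unadjusted p under 0.05. Against mc3T3, 5 of the 7 were called higher in the osteosarcomas. Over all genes, 1.76% were called lower in the first comparison and 8.59% higher in the second. The label rhabdomyosarcoma was not borne out by the muscle markers: Myog and Myod1, which define the skeletal muscle lineage, had signals of 65.9 and 39.4 units in that tumour, against osteosarcoma medians of 73.3 and 73.0 units, and 0 of 10 muscle markers were called by limma or had an unadjusted p under 0.05. Some osteosarcomas held much muscle signal: Acta1 was at 46907 units in osteosarcoma 6 and 32288 units in osteosarcoma 9. It was at 554 units in the tumour labelled rhabdomyosarcoma. The wide spread this gives the osteosarcomas limits what the test of muscle markers could call. In mc3T3 the osteoblast matrix genes Ibsp and Dmp1 were at 37.4 and 62.8 units, while the osteoblast factor Sp7 was at 1515 units.

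Inflammasomes are protein platforms that form inside cells, mostly myeloid cells, when a sensor such as NLRP3 meets signs of infection or damage. The sensor recruits the adaptor ASC, the product of Pycard, which clusters caspase-1; caspase-1 then cuts the precursors of interleukin-1 beta and interleukin-18 into their active forms and opens gasdermin D pores. Casp4 encodes the mouse enzyme also known as caspase-11, which senses bacterial lipopolysaccharide inside the cell, and Casp12 encodes a related caspase linked to the endoplasmic reticulum. Released interleukin-1 acts through the receptor encoded by Il1r1, and the product of Il1rn blocks that receptor. In bone, interleukin-1 is known as a stimulus of osteoclast formation.

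Casp1, Casp4 and Casp12 stand next to each other on chromosome 9, and their promoter windows are shown because these genes were highest in the same pair of tumours; that of Pycard is shown because it was the only one of the 9 genes whose difference from mc3T3 passed the test. Each window runs from 250 bases before to 50 bases after the gene's start in the RefSeq table of build GRCm38.p6, in which 9 of 9 genes were found. Capitals mark matches to the motifs searched on both strands: the interferon response core (GAAA, 2 free bases, GAAA), the STAT core TTCNNNGAA, the PU.1 core GAGGAA, the AP-1 site TGANTCA, the kappaB site (GGG, 2 free bases, TTTCC) and a p53 half-site.
Casp1, chr9:5298267-5298566, plus strand: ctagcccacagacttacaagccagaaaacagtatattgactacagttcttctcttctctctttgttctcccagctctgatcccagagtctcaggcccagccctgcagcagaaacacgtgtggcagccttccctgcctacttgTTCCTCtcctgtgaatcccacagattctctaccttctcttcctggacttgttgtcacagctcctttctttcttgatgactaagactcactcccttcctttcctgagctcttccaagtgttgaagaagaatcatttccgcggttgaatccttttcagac
Casp4, chr9:5308599-5308898, plus strand, the first of 2 windows listed: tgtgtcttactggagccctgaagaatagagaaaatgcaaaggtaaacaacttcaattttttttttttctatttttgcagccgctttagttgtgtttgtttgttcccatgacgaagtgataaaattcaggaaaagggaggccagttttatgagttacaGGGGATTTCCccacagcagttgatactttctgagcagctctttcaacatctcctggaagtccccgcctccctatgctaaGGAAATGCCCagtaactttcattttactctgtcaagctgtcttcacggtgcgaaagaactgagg
Casp12, chr9:5345226-5345525, plus strand: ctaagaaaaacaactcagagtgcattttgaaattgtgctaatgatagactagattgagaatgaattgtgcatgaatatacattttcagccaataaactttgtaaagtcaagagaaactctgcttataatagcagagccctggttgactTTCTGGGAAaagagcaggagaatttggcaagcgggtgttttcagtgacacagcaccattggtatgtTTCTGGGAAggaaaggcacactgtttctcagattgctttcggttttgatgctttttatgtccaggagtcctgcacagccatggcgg
Pycard, chr7:127993818-127994117, minus strand: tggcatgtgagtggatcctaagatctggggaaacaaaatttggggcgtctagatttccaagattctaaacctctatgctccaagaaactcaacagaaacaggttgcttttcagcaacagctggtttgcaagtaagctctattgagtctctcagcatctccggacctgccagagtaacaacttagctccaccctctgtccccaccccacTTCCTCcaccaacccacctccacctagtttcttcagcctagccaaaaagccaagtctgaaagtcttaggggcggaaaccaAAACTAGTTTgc

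The neighbouring caspase windows held different motifs. In the Casp1 window the PU.1 core was found on the opposite strand, beginning 108 bases before the start. The Casp4 window held the kappaB site at 93 bases before the start and again, on the opposite strand, at 14 bases before it. A STAT core lay 102 and 36 bases before the Casp12 start. The Pycard window held the PU.1 core on the opposite strand, 42 bases before the start, and a p53 half-site 38 bases after it. Of 27025 windows of this length in the table, 28.3% held the PU.1 core, 8.47% the STAT core, 8.37% the p53 half-site, 7.93% the AP-1 site, 3.49% the interferon response core and 1.62% the kappaB site. None of these overlapped another in the 4 windows, and a match describes letters, not binding.

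Levels are array signals, in units that put the trimmed mean of each array at 500, and they are compared only within a gene, since probe sets differ in brightness. Casp1, measured by probe set 1449265_at, had a signal of 1456 units in the tumour labelled rhabdomyosarcoma, 329 to 10715 units in the osteosarcomas with a median of 962, and 625 units in mc3T3. Osteosarcoma 1 held the highest level at 10715 units, followed by osteosarcoma 2 at 3008 units and osteosarcoma 4 at 2951 units, and the other 9 lay between 329 and 1436 units. The signal of mc3T3 fell inside the osteosarcoma range, below 10 of 12 tumours.

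Casp4 (probe set 1449591_at) had 2283 units in the tumour labelled rhabdomyosarcoma, 151 to 8233 units in the osteosarcomas with a median of 746, and 382 units in mc3T3. The same 3 osteosarcomas led, number 1 at 8233 units, number 2 at 3339 units and number 4 at 2256 units, and none of the other 9 passed 978 units. The tumour labelled rhabdomyosarcoma lay above 10 of 12 osteosarcomas, and mc3T3 lay below 11 of them.

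Casp12 (probe set 1418981_at) had 2436 units in the tumour labelled rhabdomyosarcoma, 220.1 to 12605 units in the osteosarcomas with a median of 809.8, and 864 units in mc3T3. Osteosarcoma 1 reached 12605 units, 15.6 times the median, and osteosarcoma 2 reached 4272 units, while osteosarcoma 10, at 1645 units, and osteosarcoma 4, at 1297 units, came next. A second Casp12 probe set gave the same leaders, with 10051 units in osteosarcoma 1 and 5064 units in osteosarcoma 2.

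On the log2(signal + 30) scale, osteosarcoma 1 stood above the osteosarcoma median by 3.46 for Casp1, 3.41 for Casp4 and 3.91 for Casp12. Osteosarcoma 2 stood above it by 1.63 for Casp1, 2.12 for Casp4 and 2.36 for Casp12. Osteosarcoma 4 was raised for Casp1 by 1.61 and for Casp4 by 1.56, but for Casp12 by 0.66. At the other end, osteosarcoma 7 lay at -1.45 for Casp1, -2.10 for Casp4 and -1.75 for Casp12 relative to the median. The standard deviation across the 12 osteosarcomas was 1.32 for Casp1, 1.41 for Casp4 and 1.51 for Casp12, larger than that of 97.2%, 97.9% and 98.5% of all genes tested. Osteosarcomas 1, 2 and 7, which hold the high and low ends for all 3 caspases, have identifiers that start with c. Osteosarcoma 11, the remaining tumour with a c identifier, ranked 5 for Casp1, 6 for Casp4 and 5 for Casp12 from the highest of 12.

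**Figure D1:**
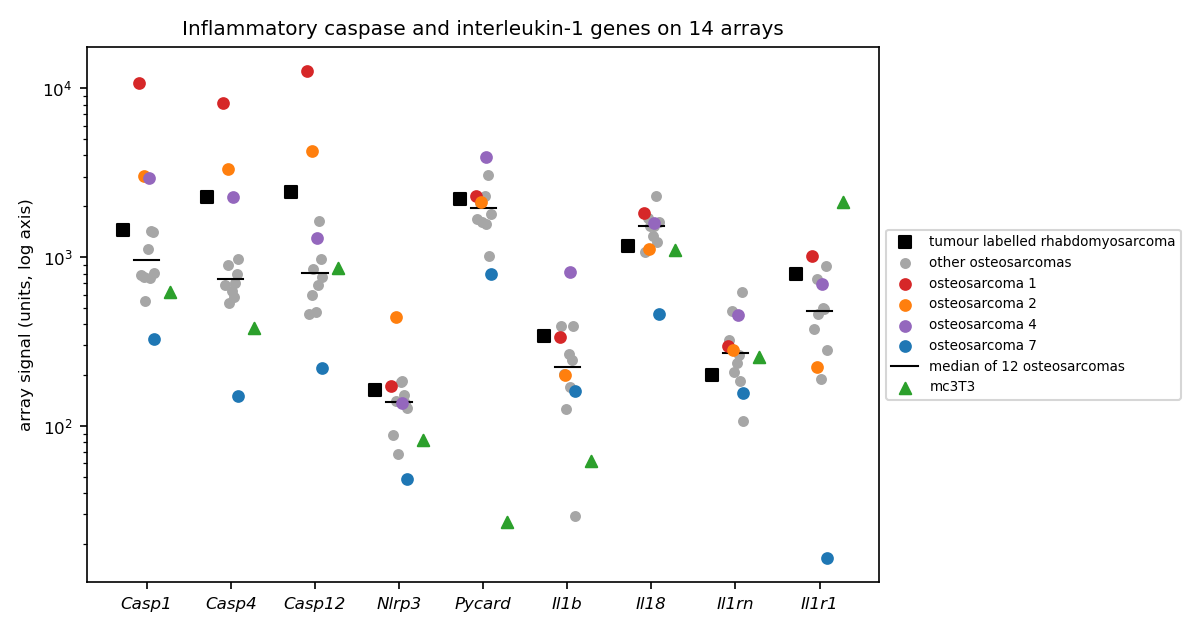
Array signal (units, log axis) of the 9 genes, with the tumour labelled rhabdomyosarcoma as a square, the 12 osteosarcomas as circles with a bar at their median, and mc3T3 as a triangle. Osteosarcoma 1 reached 10715 units for Casp1, 8233 for Casp4 and 12605 for Casp12, and Pycard was at 26.9 units in mc3T3, below all 12 osteosarcomas.

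Nlrp3, the sensor (probe set 1425412_at), was dim throughout, with 163 units in the tumour labelled rhabdomyosarcoma, 48.2 to 442 units in the osteosarcomas with a median of 139, and 83.0 units in mc3T3. Only osteosarcoma 2, at 442 units, passed the 200 units that the filter on low signal asks for, so Nlrp3 entered the test through that tumour. Its other osteosarcoma values reached at most 185 units.

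Pycard, the adaptor (probe set 1417346_at), had 2222 units in the tumour labelled rhabdomyosarcoma, 796 to 3931 units in the osteosarcomas with a median of 1948, and 26.9 units in mc3T3. All 12 osteosarcomas lay above mc3T3, and the tumour labelled rhabdomyosarcoma lay within their range. Both other Pycard probe sets stayed below 200 units on every array.

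Of the ligands, Il1b (probe set 1449399_a_at) had 341 units in the tumour labelled rhabdomyosarcoma, 29.2 to 813 units in the osteosarcomas with a median of 224, and 61.7 units in mc3T3. Osteosarcoma 4 was the highest, ahead of osteosarcoma 3 at 391 units, and only osteosarcoma 12 lay below mc3T3. Il18 (probe set 1417932_at) had 1159.9 units in the tumour labelled rhabdomyosarcoma, 462 to 2307 units in the osteosarcomas with a median of 1536, and 1096 units in mc3T3. Its highest osteosarcoma, number 10, was 1.502 times the median, the narrowest such margin of the 9 genes, and the next tumour above osteosarcoma 7 was osteosarcoma 3 at 1067 units.

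Il1r1, the receptor (probe set 1448950_at), had 792 units in the tumour labelled rhabdomyosarcoma, 16.5 to 1011 units in the osteosarcomas with a median of 477, and 2116 units in mc3T3. It ran opposite to Pycard: all 12 osteosarcomas and the tumour labelled rhabdomyosarcoma lay below mc3T3. Osteosarcoma 7, at 16.5 units, stood far under the next lowest tumour, osteosarcoma 8 at 190.0 units. Il1rn, the receptor antagonist (probe set 1451798_at), had 201 units in the tumour labelled rhabdomyosarcoma, 107 to 625 units in the osteosarcomas with a median of 272, and 255 units in mc3T3. Osteosarcoma 11 was highest for Il1rn and osteosarcoma 12 lowest, and mc3T3 lay near the middle, below 7 of 12. The other Il1rn probe sets placed these arrays differently. On 1423017_a_at, osteosarcoma 11 was highest at 596 units, osteosarcoma 7 was lowest at 23.6 units, and mc3T3 had 225.8 units. On the dimmer 1425663_at, mc3T3 had 32.9 units, below the whole osteosarcoma range. That range ran from 46.1 units in osteosarcoma 12 to 211 units in osteosarcoma 6.

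The tumours differed in which of the genes they had most of. Osteosarcoma 1 was highest for Casp1, Casp4, Casp12 and Il1r1, osteosarcoma 2 for Nlrp3, osteosarcoma 4 for Il1b and Pycard, osteosarcoma 10 for Il18 and osteosarcoma 11 for Il1rn. Osteosarcoma 7 was lowest for 7 of 9 genes, and osteosarcoma 12 for the other 2, Il1b and Il1rn. In osteosarcoma 1, whose Casp1 level was 11.1 times the median, Il1b was at 338 units and Il18 at 1813 units, both within the range of the other osteosarcomas.

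The comparison of the osteosarcomas with mc3T3 asks how the tumours differ from a non-tumorigenic osteoblast line. Pycard was the 1 gene of 9 called higher, and 0 of 9 were called lower, where 8.59% of all 11815 genes were called higher and 4.58% lower. A call needed a Benjamini-Hochberg adjusted p under 0.05 over all genes in limma and a difference of at least 1 on the log2(signal + 30) scale. For Pycard the difference was 5.06 ± 0.59 (SE, 12 osteosarcomas against 1 array, limma adjusted p = 5.64e-05), and it was 5.17 in the 6 tumours with m identifiers alone (limma adjusted p = 0.000159). Pycard was also the 1 gene of 9 with an unadjusted p under 0.05. The spread came from the osteosarcomas, and the single mc3T3 array was assumed to vary as they do.

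Il1r1 differed by -2.38 ± 1.12 and did not pass (limma adjusted p = 0.184), although it was lower in 12 of 12 osteosarcomas. In the 6 tumours with m identifiers alone, the Il1r1 difference was -2.29 and passed (limma adjusted p = 0.039), and without osteosarcoma 7 alone it was -2.10 and did not (limma adjusted p = 0.0613). For Il1b the difference was 1.49 ± 0.87, with 11 of 12 tumours higher, and it did not pass (limma adjusted p = 0.292). Casp1 differed by 0.97 ± 1.21, Casp4 by 1.29 ± 1.29 and Casp12 by 0.27 ± 1.39, with limma adjusted p of 0.646, 0.559 and 0.925. Without osteosarcomas 1 and 2, the Casp12 difference was -0.29. Nlrp3, Il18 and Il1rn differed by 0.58 ± 0.62, 0.30 ± 0.55 and 0.09 ± 0.62, and none passed. The median difference of the 9 genes was 0.58, against -0.02 over all genes.

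The other comparison sets the tumour labelled rhabdomyosarcoma against the osteosarcomas, which arose on the same p53+/- background. None of the 9 genes was called by limma in either direction, and 0 of 9 had an unadjusted p under 0.05, where 1.19% of all genes were called higher and 1.76% lower. Casp4 and Casp12 had the largest differences, 1.20 ± 1.29 and 1.20 ± 1.39 (limma adjusted p = 0.706 and 0.728), followed by Il1r1 at 1.00 ± 1.12 (limma adjusted p = 0.72). Casp1 differed by 0.21 ± 1.21, Nlrp3 by 0.19 ± 0.62, Pycard by 0.25 ± 0.59 and Il1b by 0.53 ± 0.87. Il18 and Il1rn were the 2 with negative differences, -0.22 ± 0.55 and -0.39 ± 0.62. The median of the 9 differences was 0.25, against 0.05 over all genes.

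**Figure D2:**
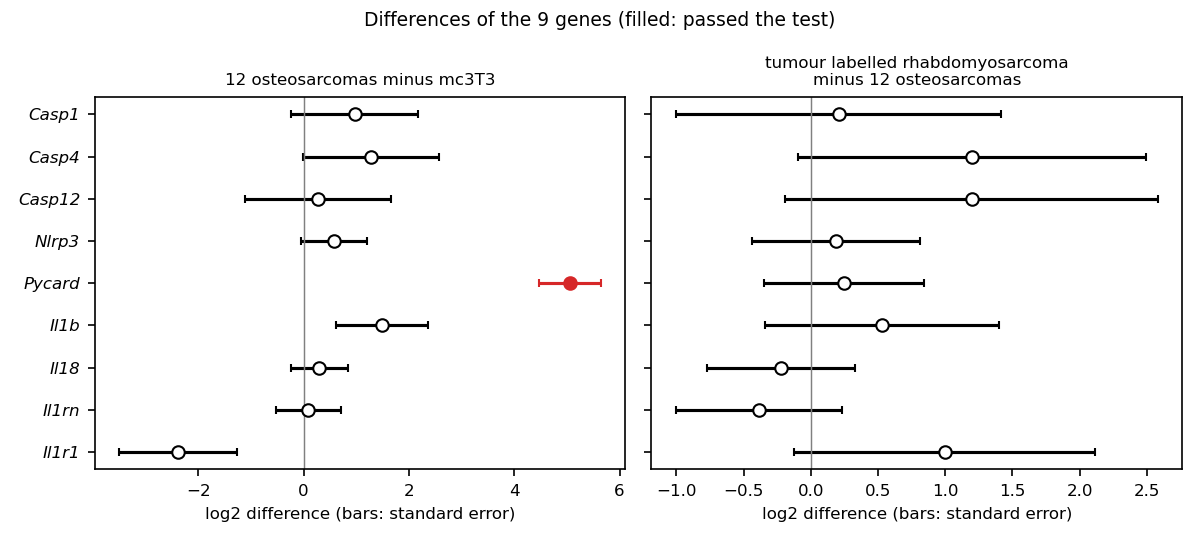
Log2 differences of the 9 genes for the 12 osteosarcomas minus mc3T3 (left) and for the tumour labelled rhabdomyosarcoma minus the 12 osteosarcomas (right), with bars of 1 standard error from limma. Pycard, the filled point at 5.06, is the only difference that passed, and the bars of the 3 caspases are the widest of the 9 genes.

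The genes around the caspases were read along chromosome 9 in the order of the RefSeq gene table. The caspases were the genes in places 8, 9 and 10 among the measured genes, and Yap1, the far end of the block, was in place 23. In osteosarcoma 1, Birc2 and Birc3, which encode inhibitors of apoptosis, stood 3.16 and 2.14 above the osteosarcoma median on the log2 scale, and Yap1, the Hippo pathway coactivator, stood 3.21 above it. In osteosarcoma 2, Birc2 stood at 2.51, Birc3 at 1.47 and Yap1 at 2.95. Tmem123, a membrane protein gene, was at 2.38 in osteosarcoma 1 and 2.06 in osteosarcoma 2, and Dcun1d5, a gene of cullin neddylation, was at 2.94 in osteosarcoma 1 and 2.61 in osteosarcoma 2. In limma, 0 of these 5 genes were called, or had an unadjusted p under 0.05, in either comparison of groups. The 3 caspases, at 3.41 to 3.91 in osteosarcoma 1, stood higher than each of these 5 genes there, and in osteosarcoma 2 they stood among them.

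Of the genes between the caspases and Birc2, Pdgfd, which encodes a platelet-derived growth factor, was at 2.002 in osteosarcoma 1 and 2.25 in osteosarcoma 2. Dync2h1, a motor protein gene of the cilium, was at 3.29 in osteosarcoma 1 and 2.87 in osteosarcoma 2. The matrix metalloproteinase genes in the same stretch gave mixed values. Mmp3 was at 2.72 in osteosarcoma 1 and -0.68 in osteosarcoma 2, Mmp7 at 2.56 and 0.95, and Mmp12 at -0.12 and -2.46. Mmp10 was at 0.30 in osteosarcoma 1 and -0.13 in osteosarcoma 2, and Mmp8 at -0.03 and 0.65. The osteosarcoma medians of Mmp3, Mmp7, Mmp8 and Mmp10 were 136, 36.5, 96.7 and 49.9 units, below the 200 units of the filter. Mmp13 was at 0.21 and 0.32, but with an osteosarcoma median of 36106 units, where the brightest gene tested had 56711 units in osteosarcoma 1 and 72128 units in osteosarcoma 2, a rise as large as that of the caspases could not have shown.

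The stretch reached past the caspases on the other side as well; the genes that follow were chosen after their values were seen. Alkbh8 was at 3.05 in osteosarcoma 1 and 1.51 in osteosarcoma 2, Aasdhppt at 2.83 in osteosarcoma 1 and 1.41 in osteosarcoma 2, and Msantd4 at 2.30 in osteosarcoma 1 and 1.48 in osteosarcoma 2. Beyond Yap1, Cfap300 was at 4.64 and Cep126 at 2.83 in osteosarcoma 1, at 3.36 and 2.02 in osteosarcoma 2, and the next gene, Trpc6, was at 0.34 and -0.97. From Alkbh8 to Cep126, 18 of 22 measured genes other than the caspases stood at least 1 above the osteosarcoma median in osteosarcoma 1 and 14 in osteosarcoma 2, against 4 in osteosarcoma 4 and 0 to 2 in each of the other 9. Of the next 22 genes, 2 did so in osteosarcoma 1 and 0 in osteosarcoma 2. The median of these next 22 was 0.51 in osteosarcoma 1 and -0.45 in osteosarcoma 2. For 587 genes further along chromosome 9 the medians were -0.09 and -0.19. The end at Cep126 was placed with these values known, so the contrast of the counts is a description. Over all genes the share was 3.80% in osteosarcoma 1 and 4.85% in osteosarcoma 2. Copy number was not measured here.

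The tumour labelled rhabdomyosarcoma and osteosarcoma 4 had high caspase levels while the median of the 22 genes of this stretch was at -0.32 and 0.31. In the tumour labelled rhabdomyosarcoma, Casp4 was at 1.58, Casp12 at 1.56 and Casp1 at 0.60 relative to the osteosarcoma median, while Yap1 was at -0.33, Dcun1d5 at -0.98 and Birc2 at 0.43. In osteosarcoma 4, with Casp1 at 1.61 and Casp4 at 1.56, Yap1 was at 0.29, Dcun1d5 at -0.12 and Tmem123 at -0.00, whereas Birc2 was at 1.02 and Birc3 at 0.98.

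**Figure D3:**
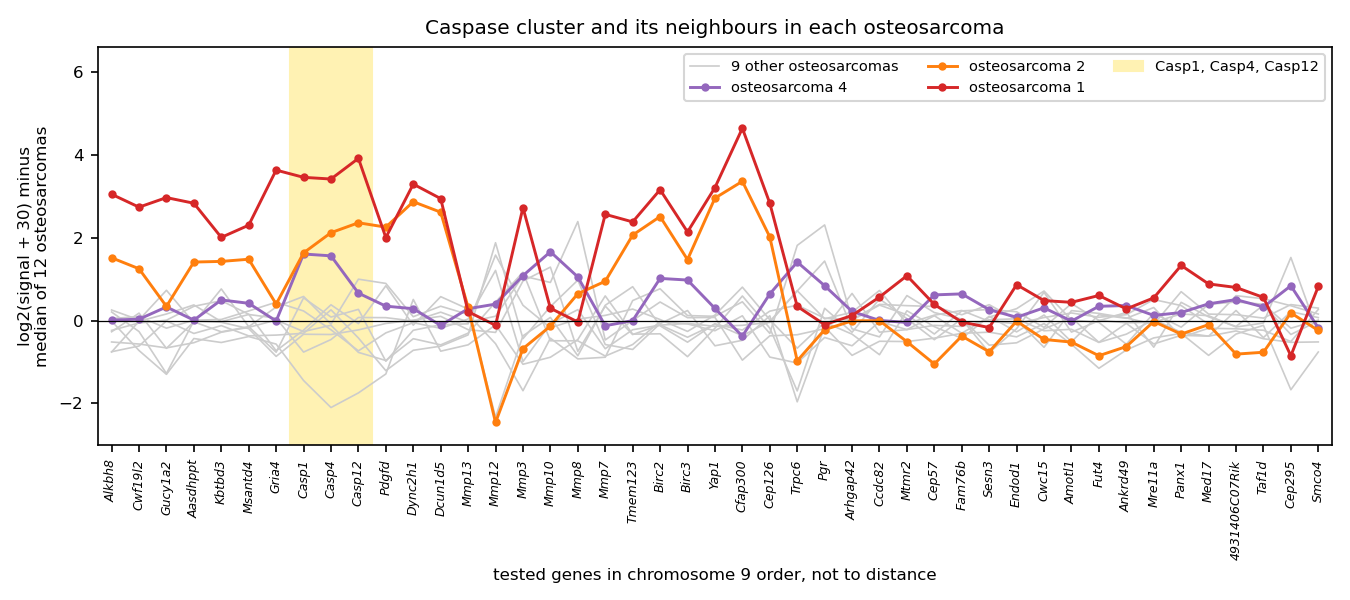
Level of each tested gene in chromosome 9 order (horizontal axis, not to distance) in each osteosarcoma, as log2(signal + 30) minus the median of the 12 osteosarcomas. Between Alkbh8 and Cep126, 18 of 22 genes other than the caspases stand at least 1 above the median in osteosarcoma 1 and 14 in osteosarcoma 2, and osteosarcoma 4 stands at 1.61 for Casp1 and 1.56 for Casp4, within the shaded caspases.

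The mean log2 level of the 5 genes Birc2, Birc3, Yap1, Tmem123 and Dcun1d5 put osteosarcomas 1 and 2, at 13.78 and 13.34, apart from the other 10, which lay between 10.53 and 11.45. The gap between these clusters was 0.58 of the whole range, so no correlation of a caspase with this mean is given over all 12. Among the other 10 osteosarcomas, Casp12 followed this mean with Pearson's r = 0.904 and Spearman's rho = 0.891, and r = 0.829 without osteosarcomas 4 and 10, the farthest from the median. For Casp1 r was 0.721 (rho = 0.673), and 0.411 without osteosarcomas 4 and 10. For Casp4 r was 0.657 (rho = 0.442), and 0.533 without them. Within the 6 tumours with m identifiers, r was 0.842 for Casp12, 0.301 for Casp1 and -0.127 for Casp4. These values are a description, since the caspases were picked for standing beside this block.

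**Figure D4:**
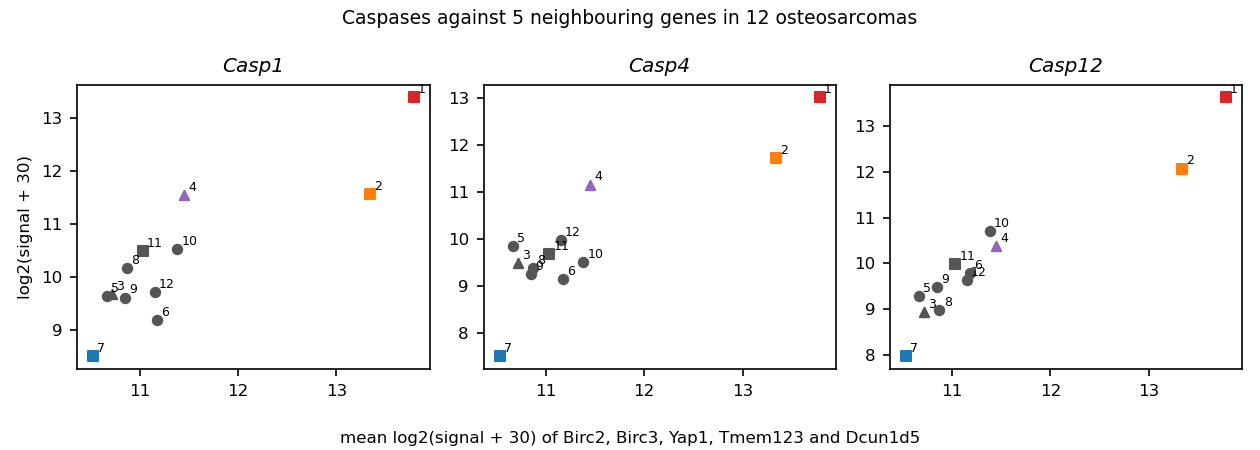
Log2(signal + 30) of each caspase (vertical axes) against the mean of the same measure for 5 block genes (horizontal axes) in the 12 numbered osteosarcomas, with circles for m, squares for c and triangles for o identifiers. Osteosarcomas 1 and 2 form their own cluster at 13.78 and 13.34, and the other 10 lie between 10.53 and 11.45.

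Over the 10 osteosarcomas other than 1 and 2, r was 0.852 between Casp1 and Casp4, 0.755 between Casp1 and Casp12 and 0.720 between Casp4 and Casp12, and none of the 3 passed (permutation adjusted p = 0.0524, 0.071 and 0.0872). Within the 6 tumours with m identifiers these values were 0.163, 0.376 and -0.0465. Over all 36 pairs of the 9 genes and 12 osteosarcomas the median r was 0.475. Il18 with Il1r1 had r = 0.808, which became 0.393 without osteosarcoma 7. Il1b with Il1rn had r = 0.755, and 0.758 without osteosarcoma 7. Without osteosarcoma 12, the lowest for both of these genes, it was 0.610. The array of osteosarcoma 12 also had the highest beta-actin ratio, 2.13, and the lowest median signal, 67.1 units. The part of this in its low values was not tested. Correlations like these share the arrays and their scaling.

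The genes most like each of the 9 were the 3 with the highest Pearson r over the 12 osteosarcomas among the genes tested. For Casp1 they were Casp4 (r = 0.945), Casp12 (r = 0.922) and Birc3 (r = 0.917). For Casp4 they were Casp1, Birc3 (r = 0.935) and Gstm4 (r = 0.932), a gene of chromosome 3. Casp12 was most like Birc2 (r = 0.954), Kbtbd3 (r = 0.950) and Cwf19l2 (r = 0.940), all on chromosome 9. Osteosarcomas 1 and 2, which stand apart for these chromosome 9 genes, enter those values. Without both, r was 0.763 for Casp1 with Birc3, 0.796 for Casp4 with Birc3, 0.929 for Casp4 with Gstm4, and 0.802, 0.788 and 0.717 for Casp12 with Birc2, Kbtbd3 and Cwf19l2.

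None of the other 6 genes had a chromosome 9 gene among its 3 most alike. Pycard was most like Spi1 (r = 0.953), which encodes the myeloid factor PU.1, then Fgd4 (r = 0.936) and Ubxn11 (r = 0.932), and r with Spi1 was 0.935 without osteosarcoma 7. Nlrp3 was most like Pigs (r = 0.925), Castor1 (r = 0.896) and Psd4 (r = 0.861). These became 0.884, 0.788 and 0.693 without osteosarcoma 2, the only tumour in which Nlrp3 passed 200 units. Il1b was most like Kif2c (r = 0.917), Zfp248 (r = 0.895) and Elp4 (r = 0.888), which became 0.8269, 0.8001 and 0.7563 without osteosarcoma 12. Il18 was most like Psmc4 (r = 0.926), Tcaf2 (r = 0.893) and Gcnt2 (r = 0.888), which became 0.727, 0.717 and 0.713 without osteosarcoma 7. Il1r1 was most like Mtap (r = 0.947), Tfpi2 (r = 0.936) and Pdhx (r = 0.9305), which became 0.835, 0.834 and 0.867 without osteosarcoma 7. Il1rn was most like Il6 (r = 0.941), the gene of a cytokine that interleukin-1 induces, then Wdr54 (r = 0.924) and Naaa (r = 0.898). Without osteosarcoma 12, these were 0.916, 0.916 and 0.847.

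Macrophages are the textbook source of several of these transcripts, and their markers differed between the groups. Of 22 macrophage markers, limma called 20 higher in the osteosarcomas than in mc3T3 and 0 lower, beside 8.59% and 4.58% of all genes. The 22 markers had a median log2 difference of 6.24. Their summed signal was 261617 units in the tumour labelled rhabdomyosarcoma, 91032 to 227467 units in the osteosarcomas and 1459 units in mc3T3. The 4 with the largest differences, C1qb, C1qa, Laptm5 and Ctss, were at 2.6, 3.9, 4.1 and 31.5 units in mc3T3. In bulk tissue, fewer cells of a type and less RNA per cell cannot be told apart, and the part of these markers in the Pycard difference was not tested. None of the 22 markers was called by limma between the tumour labelled rhabdomyosarcoma and the osteosarcomas, where 5 were higher and 1 lower at an unadjusted p under 0.05, and their median difference there was 1.12.

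Across the 12 osteosarcomas the mean log2 level of these markers was 11.79 ± 0.51 (SD), lowest in osteosarcoma 7 at 10.79 and highest in osteosarcoma 2 at 12.44. Its relation with each of the 9 genes was tested by permutation, two-sided, with Benjamini-Hochberg adjustment over 15 relations computed. Casp4 (r = 0.725, permutation p = 0.00706, adjusted p = 0.0176; rho = 0.734, permutation p = 0.00836, adjusted p = 0.0313) and Pycard (r = 0.734, permutation p = 0.00552, adjusted p = 0.0166; rho = 0.643, permutation p = 0.0268, adjusted p = 0.067) passed by r. Neither passed after adjustment without tumours at the ends, where fewer samples enter. Without osteosarcomas 7 and 11, the farthest from the median, r was 0.642 for Casp4 (permutation p = 0.0428, adjusted p = 0.107). For Pycard it was 0.309 (permutation p = 0.389, adjusted p = 0.416). Without osteosarcoma 7 alone, r was 0.588 for Casp4 and 0.575 for Pycard, with permutation adjusted p of 0.159 and 0.16. Within the 6 tumours with m identifiers, r was 0.340 for Casp4 (exact permutation p = 0.518) and 0.159 for Pycard (exact permutation p = 0.786). Osteosarcomas 1 and 2, the highest for Casp4 and for the chromosome 9 block, entered all of these values except those of the m tumours. Their marker means were 12.22 and 12.44, and the relation without only these 2 was not tested.

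The relation did not pass for the other 7 genes. It was closest for Nlrp3 (r = 0.604, permutation p = 0.0353, adjusted p = 0.0588; rho = 0.5035, permutation p = 0.0982, adjusted p = 0.164) and Casp1 (r = 0.589, permutation p = 0.0416, adjusted p = 0.0624; rho = 0.580, permutation p = 0.0519, adjusted p = 0.0974). For Casp12 r was 0.492 (permutation p = 0.102, adjusted p = 0.14), with rho = 0.371 (permutation p = 0.236, adjusted p = 0.295), and within the 6 tumours with m identifiers r was -0.711 (exact permutation p = 0.101). Il18, Il1r1, Il1b and Il1rn had r of 0.421, 0.403, 0.335 and 0.299 (permutation p = 0.172, 0.196, 0.289 and 0.345, adjusted p = 0.215, 0.226, 0.31 and 0.345). Their rho was 0.182, 0.168, 0.357 and 0.420, with permutation p of 0.572, 0.607, 0.256 and 0.176 and adjusted p of 0.607, 0.607, 0.295 and 0.264. Without osteosarcomas 7 and 11, r was 0.568 for Casp1, 0.349 for Casp12, 0.470 for Nlrp3, 0.588 for Il1b, -0.509 for Il18, 0.0499 for Il1r1 and 0.697 for Il1rn. With 1 tumour left out, Nlrp3 passed without osteosarcoma 3 (r = 0.7045, permutation adjusted p = 0.0305). Without osteosarcoma 11, Il1rn (r = 0.704, permutation adjusted p = 0.0372) and Casp1 (r = 0.670, permutation adjusted p = 0.042) passed. Without osteosarcoma 7, r was 0.413 for Nlrp3, 0.124 for Il1rn and 0.451 for Casp1 (permutation adjusted p = 0.319, 0.72 and 0.312). In the 6 tumours with m identifiers, r was 0.0793 for Casp1, 0.364 for Nlrp3, 0.3805 for Il1b, -0.383 for Il18, -0.0266 for Il1r1 and 0.683 for Il1rn (exact permutation p = 0.931, 0.511, 0.5, 0.519, 0.969 and 0.142).

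The mean marker levels of osteosarcomas 1 and 2 were 12.22 and 12.44, beside 12.28 in osteosarcoma 4 and 12.17 in osteosarcomas 3 and 5. At these levels, Casp1 was at 10715, 3008, 2951, 785 and 762 units in osteosarcomas 1, 2, 4, 3 and 5. Casp4 was at 8233, 3339, 2256, 686 and 897 units in the same tumours, and Casp12 at 12605, 4272, 1297, 462 and 597 units. The part of the markers in these levels was not tested.

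**Figure D5:**
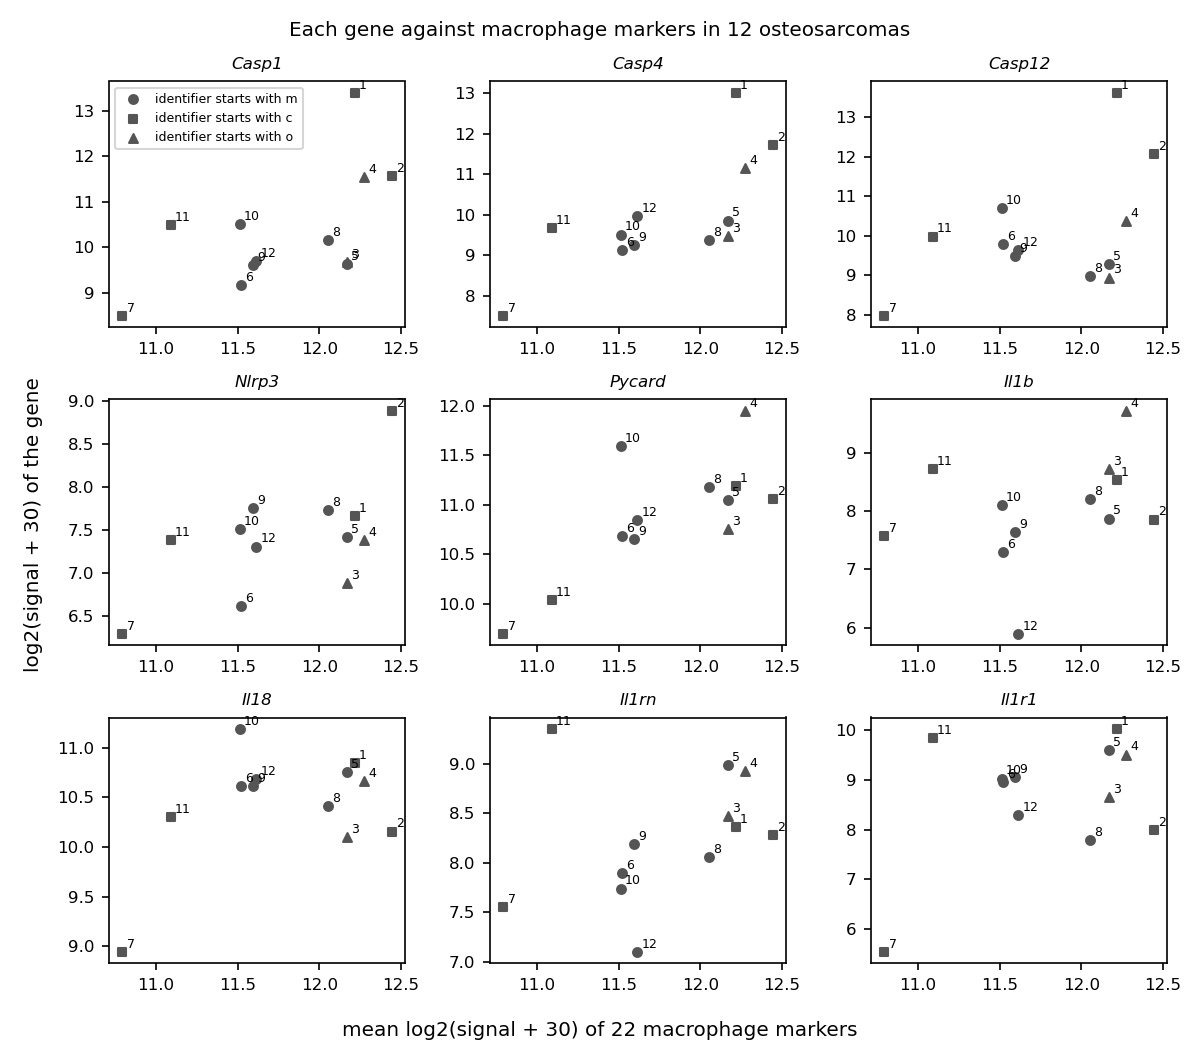
Log2(signal + 30) of each of the 9 genes (vertical axes) against the mean of the same measure over 22 macrophage markers (horizontal axes) in the 12 numbered osteosarcomas, with circles for m, squares for c and triangles for o identifiers. Osteosarcoma 7 is the lowest point on the horizontal axis, at 10.79, and is also lowest for 7 of the 9 genes.

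Neutrophils, another source of interleukin-1 beta, were read through 8 markers. None of the 8 was called by limma in either comparison; at an unadjusted p under 0.05, 0 differed in the tumour labelled rhabdomyosarcoma from the osteosarcomas and 3 were higher in the osteosarcomas than in mc3T3. Their summed signal was 1319.7 units in the tumour labelled rhabdomyosarcoma, 1461 to 62951 units in the osteosarcomas and 666 units in mc3T3. S100a8, a neutrophil calcium-binding protein gene, peaked in osteosarcoma 6 at 22533 units, where Il1b was at 126 units, and stood at 13741 units in osteosarcoma 4, where Il1b was highest at 813 units. Of the other marker lists, limma called 12 of 12 osteoclast and 9 of 10 endothelial markers higher in the osteosarcomas than in mc3T3. Over all genes, 8.59% were called higher. Against mc3T3, 0 of 6 T and NK cell markers were called or had an unadjusted p under 0.05. In the tumour labelled rhabdomyosarcoma, 9 of 12 osteoclast markers were called lower than in the osteosarcomas, beside 1.76% of all genes. There, 0 of 10 endothelial and 0 of 6 T and NK cell markers were called.

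The remaining inflammasome genes, 13 tested of 21 listed, had 2 members called higher in the osteosarcomas than in mc3T3 and 0 called lower. Their median difference was 0.325. Over all genes, 8.59% were called higher and 4.58% lower in this comparison. Txnip, whose product binds NLRP3 and thioredoxin, had 8700.2 units in the tumour labelled rhabdomyosarcoma, 2778 to 7042 units in the osteosarcomas and 1225 units in mc3T3, a difference between osteosarcomas and mc3T3 of 1.96 ± 0.38 (limma adjusted p = 0.00314). Pstpip1, whose product binds the pyrin sensor, had 243 units in the tumour labelled rhabdomyosarcoma, 891 to 3625 units in the osteosarcomas and 195 units in mc3T3. It was higher in the osteosarcomas than in mc3T3 by 2.90 ± 0.64 (limma adjusted p = 0.00702) and lower in the tumour labelled rhabdomyosarcoma than in the osteosarcomas, at -2.62 ± 0.64 (limma adjusted p = 0.0377). The second of these calls was lost when osteosarcoma 5, 6, 9 or 10 was left out. Gsdmd, the pore protein cut by caspase-1 and caspase-11, had 1133 units in the tumour labelled rhabdomyosarcoma, 285 to 2072 units in the osteosarcomas and 1191 units in mc3T3 and passed neither test; it and the genes named without a call in the following lists were chosen after their values were seen.

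Of the other interleukin-1 family ligands, only Il33, an alarmin released by damaged cells, reached the filter. It had 198 units in the tumour labelled rhabdomyosarcoma, 21.8 to 2605 units in the osteosarcomas with a median of 157, and 40.8 units in mc3T3, and passed neither test. Osteosarcoma 1 held the 2605 units, and the next tumour, osteosarcoma 6, had 333 units. None of 6 other family receptors and binding proteins was called by limma in either comparison (1 higher and 0 higher at an unadjusted p under 0.05), with median differences of 0.90 for the tumour labelled rhabdomyosarcoma against the osteosarcomas and 0.99 for the osteosarcomas against mc3T3. Il1rap, the co-receptor of Il1r1, had 462 units in the tumour labelled rhabdomyosarcoma, 122 to 455 units in the osteosarcomas and 227 units in mc3T3.

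Downstream of the receptor, 15 signalling genes were tested, and 2 were called higher in the osteosarcomas than in mc3T3, beside 8.59% of all genes. Irak3, a kinase-like inhibitor of the pathway found in monocytes and macrophages, had 244 units in the tumour labelled rhabdomyosarcoma, 157 to 692 units in the osteosarcomas and 5.9 units in mc3T3, a difference between osteosarcomas and mc3T3 of 2.86 ± 0.57 (limma adjusted p = 0.00348). Irak1, the receptor-proximal kinase, differed by 1.60 ± 0.51 (limma adjusted p = 0.0493), at 1025 units in the tumour labelled rhabdomyosarcoma, 1321 to 4009.8 units in the osteosarcomas and 823 units in mc3T3. The list had 1 call in place of 2 under 14 of 20 alternatives.

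Of 12 genes known to be induced by interleukin-1, 4 were called lower in the osteosarcomas than in mc3T3 and 0 higher. Their median difference was -1.52. The shares over all genes were 4.58% lower and 8.59% higher. Cxcl5, a neutrophil chemokine, had 429 units in the tumour labelled rhabdomyosarcoma, 0.5 to 491 units in the osteosarcomas and 3794 units in mc3T3, and differed between osteosarcomas and mc3T3 by -6.01 ± 1.11 (limma adjusted p = 0.00217). Lcn2, the iron-binding lipocalin, differed by -4.56 ± 1.25 (limma adjusted p = 0.0259), and Vcam1, an adhesion molecule, by -2.28 ± 0.55 (limma adjusted p = 0.0132). Nfkbiz, a nuclear cofactor of NF-kappaB, differed by -1.47 ± 0.37 (limma adjusted p = 0.015). In the 6 tumours with m identifiers alone, 2 of the 12 were called lower and 1 higher. Between the tumour labelled rhabdomyosarcoma and the osteosarcomas 0 of the 12 were called by limma (3 higher and 1 lower at an unadjusted p under 0.05), with 0 to 2 called higher over the alternatives.

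None of 5 other caspases tested was called by limma between the osteosarcomas and mc3T3, 0 had an unadjusted p under 0.05, and they had a median difference of -0.06. Casp8, the initiator caspase of death receptors, had 1868 units in the tumour labelled rhabdomyosarcoma, 1492 to 2457 units in the osteosarcomas and 1965 units in mc3T3. Casp14, a caspase of the epidermis, was called lower in the tumour labelled rhabdomyosarcoma, at 85.5 units against 180.3 to 305 units in the osteosarcomas, a difference of -1.24 ± 0.31 (limma adjusted p = 0.0419), and the call was lost under 12 of 20 alternatives.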

How the data were processed

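Per the labels' protocols, biotin-labelled total RNA of 1 tumour labelled rhabdomyosarcoma, 12 osteosarcomas and mc3T3 cells was run on 14 arrays. The deposited values are array signal intensities of 45101 probe sets (64 of them controls) on a linear scale, for which the submitters' processing notes name GCOS; the version, the background step and detection calls were not given in the sources used here. A low signal can therefore not be told from background, and precision is limited by the number of arrays. Groups were taken from the titles, because the description names mc3T3 for every sample.

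Each array was scaled to a trimmed mean of 500 (2% off each end), which it already had to rounding. Probe sets reaching 200 units on at least 1 array were kept (22479), named through the platform annotation (34945 with 1 symbol, 932 with several, 9160 unnamed here) with symbols updated from a RefSeq table of GRCm38.p6, and reduced to the brightest probe set per gene, 11815 genes. All 9 genes passed this filter. No pair of arrays was identical, and the highest correlation between arrays was 0.953.

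Log2(signal + 30) was fitted with limma 3.58.1 in R 4.3.3 (lmFit and eBayes, two-sided, 3 groups, 11 residual and 3.56 prior degrees of freedom), with Benjamini-Hochberg adjustment over all genes; the fit was tested on simulated data. The scale understates the change of dim genes. Relations across osteosarcomas used 100000 permutations, or all orders for 6 tumours. Genes named are the 9, up to 4 called genes per list and comparison with the largest change, the chromosome 9 genes from Casp12 to Yap1 and the 3 genes most like each of the 9; lineage markers named without a call (Sp7, Myog, Myod1, S100a8) were chosen after their values were seen. The members, lists and tests were chosen with earlier results of these data known. Alternatives were pseudocounts of 10 and 100, no filter, quantile normalization, the mean of probe sets, tumours with m identifiers alone and leaving out each osteosarcoma; leaving out pairs of osteosarcomas was added after the data were seen.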

Additional observations from a re-analysis of the deposited data

How the results depend on the processing

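Of 360 values of the 9 genes over both comparisons and 20 alternatives, 354 kept their direction and their side of the threshold. Pycard passed against mc3T3 under all 20, at 3.96 to 5.67 (limma adjusted p 1.56e-05 to 0.000265), and Casp4 came closest in the tumour labelled rhabdomyosarcoma (lowest limma adjusted p = 0.0669). With m tumours alone, 1 of the 9 genes was called lower against mc3T3, Il1r1, in place of 0. Casp12 against mc3T3 turned to -0.16 with m tumours alone and -0.29 without osteosarcomas 1 and 2, and ranged from -0.0567 (without osteosarcoma 1) to 0.46 (without 7) when single tumours were left out. Il1rn turned to -0.16 with m tumours alone and ranged from -0.0135 (without 11) to 0.19 (without 12).

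The relations moved more. With m tumours alone, r with the macrophage markers was 0.340 for Casp4, -0.711 for Casp12, -0.383 for Il18, 0.159 for Pycard and -0.0266 for Il1r1; r with the block was 0.301 for Casp1, -0.127 for Casp4 and 0.842 for Casp12; and r was 0.163 for Casp1 with Casp4, 0.376 for Casp1 with Casp12 and -0.0465 for Casp4 with Casp12. Without the 2 tumours farthest from the median, r with the macrophage markers was 0.642 for Casp4, -0.509 for Il18 and 0.309 for Pycard, r with the block was 0.411 for Casp1 and 0.829 for Casp12, and the pairs had 0.852, 0.755 and 0.720. Leaving out single tumours gave a macrophage r of 0.588 to 0.777 for Casp4, -0.213 to 0.551 for Il18, 0.575 to 0.865 for Pycard and -0.201 to 0.615 for Il1r1, each lowest without osteosarcoma 7, and a block r of 0.575 (without osteosarcoma 4) to 0.849 for Casp1. Fewer samples enter these fits; no other cause was tested.

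No paired analysis was possible because the labels give no replicate numbers shared between groups. Signals of Nlrp3, Il1b and Il1rn lie near the 200-unit filter, and no detection call was used to tell them from background.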
